A study of Mus musculus with 18 samples.

Results

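The 40 cell cycle and proliferation genes described here were taken by symbol from a list of known cell cycle genes, and all 40 were found among the 35441 genes of the liver count table. They were measured by RNA-seq of poly(A) RNA in 18 livers, 3 each from 6 groups. WT mice carried both copies of Lipa, the gene of lysosomal acid lipase. Lipa-/- mice (KO) lacked exon 4 of Lipa in every tissue, after a cross with mice expressing Cre under the CMV promoter, and were kept on the C57/BL6N background. Treated mice (KOT) were Lipa-/- animals that received, by tail vein as young adults, an rAAV8 vector with human LIPA cDNA under the hAAT promoter, which is active in hepatocytes and was not chosen to drive the human gene in the other cells of the liver. The animals were male, and livers were taken at 12 and 34 weeks post-injection (labelled 3 and 8 months). By the study's methods most untreated Lipa-/- mice of the 34-week group were killed earlier, on reaching set endpoints, so the KO livers labelled 34 weeks (8 months) may come from younger animals, and the ages of the 3 sequenced are not given in the sources used here. The 34-week livers and the 12-week livers also carried different sample codes, and KO mouse 5 at 12 weeks had a code of its own, so time and sample series cannot be told apart.

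A dividing cell passes from growth through DNA replication to mitosis, and the machinery of each phase is transcribed shortly before it is used. Cyclins switch on their kinases, licensing factors load the MCM helicase onto DNA, and kinases, motors and centromere proteins then part the chromosomes before the anaphase-promoting complex destroys the mitotic cyclins. In the adult liver nearly all hepatocytes rest outside the cycle, and they re-enter it after tissue loss or injury, as cholangiocytes, macrophages and other liver cells can. The RNA of a whole liver does not say which cells a transcript came from, and more dividing cells cannot be told apart from more of these transcripts per cell.

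The genes lay on 18 chromosomes, with 8 of them on chromosome 2. RefSeq promoters, 250 bases before to 50 after the start of transcription, were given for 32 of the 40 genes (not for Ccne2, Aurkb, Mcm4, Kif20a, Ccnd1, Foxm1, Ccna2 and Tpx2) and were placed on GRCm39 by exact match, since the table itself follows GRCm38.p6. Motifs known from cell cycle promoters were searched on both strands. A gene counted when any of its promoters held the motif (Cdkn1a, Mcm7 and Prc1 had more than 1), while the shares of all promoters count each promoter singly. The box CCAAT, which the factor NF-Y binds, was present in 24 of the 32 genes (75%), against 37.4% of all 32851 promoters of the same length. The cell cycle genes homology region, searched as TTTGAA (equal, on the opposite strand, to the further form TTCAAA) and in the less usual forms TTCGAA and, last, TTTAAA, was present in 23 (71.9%, against 28.8%). An E2F motif, searched as TTGGCGC and, in addition to this first form, as TTGCCGC, then with other central bases as TTCGCGC, and in its remaining variant as TTCCCGC, was present in 10 (31.2%, against 9.57%). Both CCAAT and a homology region were present in 21 (65.6%, against 11.3%). Neither promoter of Cdkn1a held any of the motifs. The promoters of 5 genes are shown up to the start of transcription, 5′ to 3′ on the coding strand, with every match in capitals (ATTGG is CCAAT, and GCGGGAA an E2F motif, on the other strand). Cenpa, Ube2c, Cdk1 and Mcm7 had the highest level in KO livers among the genes that held both CCAAT and a homology region, and Mcm3 and Mcm7 among the licensing and DNA synthesis genes with an E2F motif. The 3 E2F matches of Mcm3 lay across or after the start and are not shown, and Mcm7 had 2 further ones there.
Cenpa (chr5:30823980-30824229, plus strand): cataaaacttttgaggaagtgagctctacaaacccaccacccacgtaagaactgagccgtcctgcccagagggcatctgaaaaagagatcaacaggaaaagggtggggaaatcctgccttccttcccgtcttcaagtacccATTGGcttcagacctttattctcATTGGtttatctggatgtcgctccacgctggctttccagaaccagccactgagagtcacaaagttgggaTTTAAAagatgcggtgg
Ube2c (chr2:164611599-164611848, plus strand): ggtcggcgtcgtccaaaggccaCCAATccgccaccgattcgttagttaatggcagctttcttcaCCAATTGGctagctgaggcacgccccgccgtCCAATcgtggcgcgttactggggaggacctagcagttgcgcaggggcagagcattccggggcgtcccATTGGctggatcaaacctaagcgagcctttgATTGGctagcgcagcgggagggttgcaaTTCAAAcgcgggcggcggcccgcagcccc
Cdk1 (chr10:69188743-69188992, minus strand): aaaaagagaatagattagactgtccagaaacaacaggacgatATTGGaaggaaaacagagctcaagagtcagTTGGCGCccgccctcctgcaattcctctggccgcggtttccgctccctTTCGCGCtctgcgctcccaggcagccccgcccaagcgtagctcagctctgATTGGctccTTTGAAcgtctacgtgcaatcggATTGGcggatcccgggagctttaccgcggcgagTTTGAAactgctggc
Mcm7 (chr5:138170146-138170395, minus strand): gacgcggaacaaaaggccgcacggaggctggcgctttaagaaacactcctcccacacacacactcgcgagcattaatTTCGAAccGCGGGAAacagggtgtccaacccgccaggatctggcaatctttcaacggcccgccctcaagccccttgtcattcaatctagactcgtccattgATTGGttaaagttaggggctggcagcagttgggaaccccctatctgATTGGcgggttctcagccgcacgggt
Mcm3 (chr1:20890537-20890786, minus strand): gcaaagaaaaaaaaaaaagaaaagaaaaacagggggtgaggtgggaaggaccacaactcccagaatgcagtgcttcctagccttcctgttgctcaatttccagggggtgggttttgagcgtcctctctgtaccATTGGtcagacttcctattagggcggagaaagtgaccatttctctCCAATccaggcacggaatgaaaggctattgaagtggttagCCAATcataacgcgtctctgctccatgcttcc
In these stretches the Ube2c promoter held 6 CCAAT boxes, 2 of which overlap, and 1 homology region close to the start. The Cdk1 promoter held 3 CCAAT boxes, 2 homology regions and 2 E2F motifs. Of the genes with a promoter in the table, 19 of the 23 that were called higher in KO livers at 12 weeks held CCAAT and 19 a homology region, and of the 9 that were not called 5 held CCAAT and 4 a homology region. An E2F motif was held by 7 of these 23 and by 3 of these 9. A match is a run of letters and not a measured binding site.

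Each liver gave 17527848 to 25833134 estimated reads. The 40 genes took 0.0118% to 0.0137% of the reads in WT livers at 12 weeks and 0.0257% to 0.0897% in KO livers, so that single genes rested on few reads and several WT values below on fewer than 10. Murine Lipa, read over the whole gene, checked the genotypes, with 202 to 323 CPM (counts per unit of library size, scaled by TMM factors) in WT and 16.7 to 37.0 CPM in KO and KOT livers. Human LIPA was read at 523 to 2746 CPM in KOT livers and at most 0.906 CPM elsewhere. Hepatocyte markers were the most abundant of the marker lists in every group, at 31730 to 121900 CPM in sum. Genes were tested with edgeR's quasi-likelihood model over all 14533 genes with more than 100 reads, which kept all 40 members. A gene was called when its log2 fold change was above 1 in size and its adjusted p (Benjamini-Hochberg over all genes) below 0.05.

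In WT livers, the level of most of these genes was low. On the TPM scale, which allows for transcript length, Pcna (the sliding clamp of DNA polymerase) was the highest of the 40 at 12 weeks, with 24.2 ± 2.30 TPM (SD, n = 3). Cdkn1a, which encodes the cyclin-dependent kinase inhibitor p21, followed with 11.4 ± 5.52 TPM, and Mcm7, Tyms, Cenpa and Ccnd1 with means of 5.33, 5.17, 4.07 and 3.48 TPM. The intervals of these 4 neighbours overlapped. Bub1, Foxm1 and Cenpe were lowest, with means of 0.0262, 0.0346 and 0.0465 TPM. In KO livers at 12 weeks Pcna remained first with a mean of 68.6 TPM, and Cenpa, Cdk1 and Ube2c, had means of 21.6, 17.98 and 15.1 TPM, with SDs nearly as large as or larger than the means (21.2, 21.7 and 16.7). In WT livers the means of Cdk1 and Ube2c had been 0.970 and 0.756 TPM. At 34 weeks the order in WT livers began with Pcna (28.2 TPM), Cdkn1a (9.57 TPM) and Tyms (7.46 TPM), and in KOT livers with Pcna (27.5 TPM), Cdkn1a (7.51 TPM) and Mcm7 (7.31 TPM).

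The first question was how Lipa-/- livers differ from WT livers. At 12 weeks post-injection, 28 of the 40 genes were called higher in KO livers and none lower, while 20.2% of all genes tested were called higher and 29.3% in either direction. Their log2 fold changes ran from -0.11 to 5.08 with a median of 2.93 (all genes: 0.02), and 39 of 40 were positive. At 34 weeks, 27 were called higher and none lower, against 20.5% and 36.3% of all genes, with a median of 2.13, a range of -0.44 to 3.98 and again 39 positive. The called genes were largely shared: 25 were called at both time points, which is 89.3% of the 12-week and 92.6% of the 34-week calls. This sharing was not counted over all genes. These 2 comparisons use different mice throughout. At 12 weeks 29 genes had no overlap between the KO and the WT livers (52.7% of all genes), and at 34 weeks likewise 29 (60.3%).

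**Figure D1:**
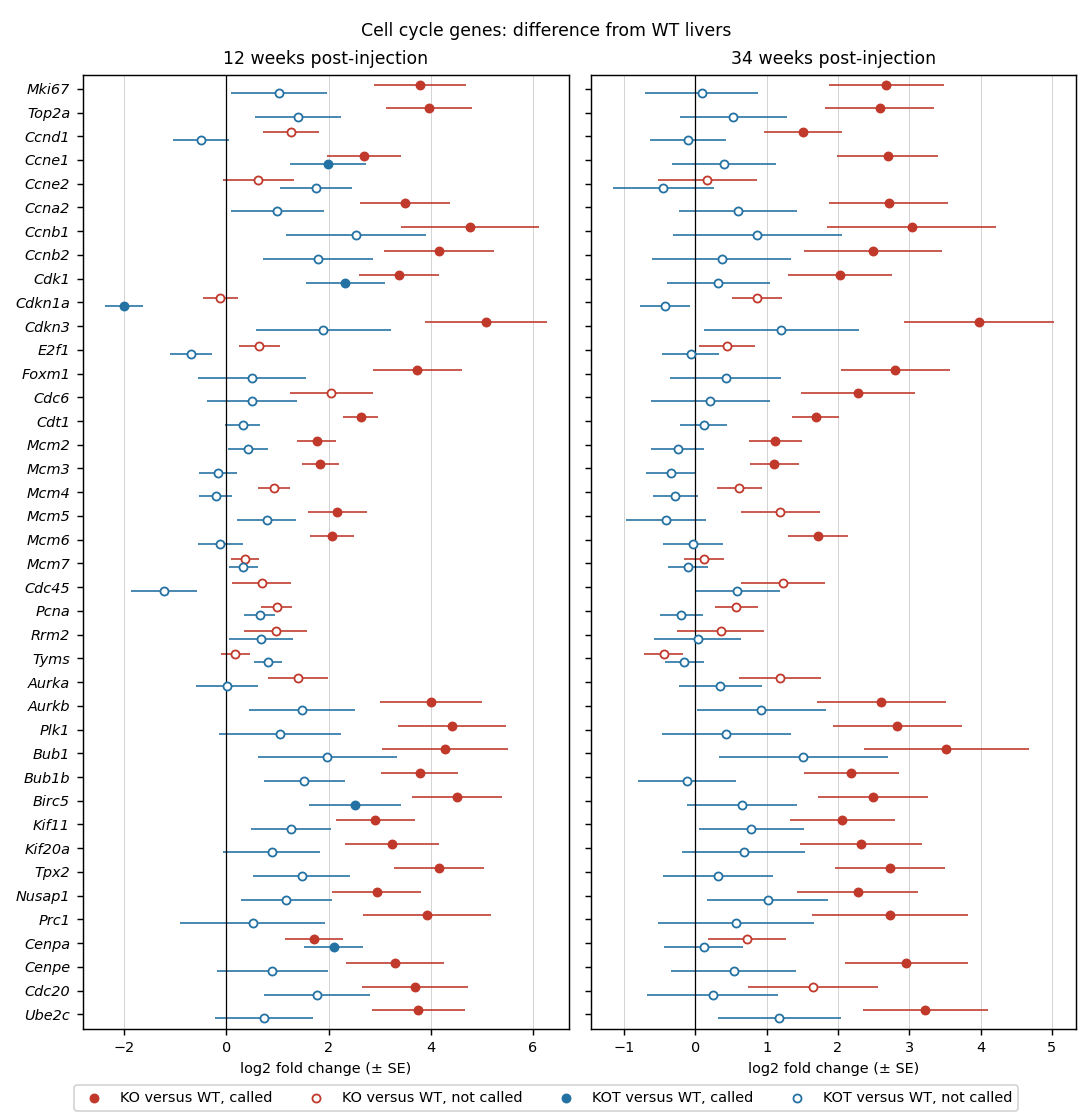
Log2 fold change from WT livers (x axis, ± SE of the edgeR model) of the 40 genes (y axis, ordered by role) in KO (red) and KOT (blue) livers at 12 and 34 weeks, 3 mice per group. Filled points were called, open points were not. Red points lie mostly right of 2 at both times, and the blue points at 34 weeks are all open and lie between -0.45 and 1.52.

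Mki67 encodes the Ki-67 antigen of cycling cells (chr7:135291513-135318299 of GRCm39, the build of all gene positions here). Its level in WT livers at 12 weeks was 0.750, 0.478 and 0.995 CPM in mice 1, 2 and 3, and in KO livers 5.54, 5.63 and 19.6 CPM in mice 5, 8 and 9. Every KO liver was above every WT liver, and mouse 9 stood well above the rest. The log2 fold change was 3.79 (SE 0.90, adjusted p = 0.00321 by edgeR). At 34 weeks WT livers had 1.12, 4.14 and 3.97 CPM and KO livers 24.7, 7.57 and 27.7 CPM, with mouse 5 the lowest of the KO livers but still above all WT livers. The log2 fold change was then 2.68 (SE 0.81, adjusted p = 0.012). Top2a, the topoisomerase that untangles chromosomes before they separate, had 0.536, 0.909 and 0.942 CPM in WT and 4.44, 5.20 and 28.0 CPM in KO livers at 12 weeks. It rose by 3.96 (SE 0.84, adjusted p = 0.00134) at 12 and by 2.59 (SE 0.77, adjusted p = 0.0104) at 34 weeks.

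Of the 7 cyclin and cyclin kinase genes, 5 were called higher in KO livers at 12 weeks and 6 at 34 weeks. Ccnb1, the B-type cyclin that starts mitosis (chr13:100915153-100923116), was read at 0, 0.287 and 0.523 CPM in WT livers and at 0.887, 2.95 and 18.7 CPM in KO livers at 12 weeks. The groups did not overlap, but the KO livers differed among themselves by more than the lowest of them differed from WT. The log2 fold change was 4.76 (SE 1.35, adjusted p = 0.01), and 3.03 (SE 1.19, adjusted p = 0.0451) at 34 weeks. Ccnb2, Ccna2 and Cdk1, the second B-type cyclin, the cyclin of S phase and G2 and the kinase they activate, rose at both times, by 4.16, 3.50 and 3.39 at 12 and by 2.49, 2.71 and 2.02 at 34 weeks. Ccne1, the cyclin of entry into S phase, rose by 2.70 at each time. Its relative Ccne2 had log2 fold changes of 0.63 and 0.17 and was not called. Ccnd1, the cyclin that links growth signals to the cycle, had 16.9, 9.14 and 15.9 CPM in WT and 22.1, 37.1 and 41.5 CPM in KO livers at 12 weeks, without overlap, but missed the call (1.26, SE 0.54, adjusted p = 0.0757). At 34 weeks it was called, with a log2 fold change of 1.51 (SE 0.54, adjusted p = 0.0299).

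The regulators split. Cdkn3, a phosphatase acting on cyclin-dependent kinases (chr14:46997904-47015505), had the largest log2 fold change of the 40 genes at both times, 5.08 (SE 1.18, adjusted p = 0.00273) and 3.98 (SE 1.06, adjusted p = 0.00509). In WT livers at 12 weeks it rested on 6 reads over 3 mice, against 276 reads in KO livers, a ratio of 34.3 with a 95% counting interval of 15.6 to 94.3 that covers counting error only. The fitted value of such a gene depends on the prior count of the model. Foxm1, the transcription factor of G2 and mitosis genes, had 0.0536, 0.144 and 0.314 CPM in WT and 1.31, 1.09 and 4.65 CPM in KO livers at 12 weeks, and rose by 3.74 and 2.81 at the 2 times. E2f1, a transcription factor of S phase genes, was not called (0.65 and 0.44). Cdkn1a was not called in KO livers either. Its log2 fold change was -0.11 (SE 0.35, adjusted p = 0.821) at 12 weeks and 0.87 (SE 0.35, adjusted p = 0.0503) at 34 weeks.

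Among the 9 genes of origin licensing and the replicative helicase, 5 were called higher at each time, with median log2 fold changes of 1.84 and 1.19. Cdt1, which loads the helicase (chr8:123294703-123300293), had 1.34, 1.68 and 1.73 CPM in WT livers and 6.60, 9.36 and 13.6 CPM in KO livers at 12 weeks. At 34 weeks the values were 3.54, 1.66 and 3.15 CPM in WT and 10.1, 8.43 and 8.31 CPM in KO livers. The groups were apart at both times. Cdt1 had the smallest adjusted p of the 40 in both comparisons, 1.55e-05 with a log2 fold change of 2.63 (SE 0.34) and 0.000443 with 1.69 (SE 0.33). Mcm6, a subunit of the helicase, rose by 2.07 (SE 0.43) and 1.72 (SE 0.42), and Mcm2 and Mcm3 by 1.77 and 1.84 at 12 and by 1.12 and 1.11 at 34 weeks. Mcm5 was called at 12 weeks alone (2.17, against 1.19 with adjusted p = 0.0875 at 34 weeks), and Cdc6, which recruits the helicase with Cdt1, at 34 weeks alone (2.29, against 2.05 with adjusted p = 0.0548 at 12 weeks). Mcm7, at 12.3 to 14.7 CPM in WT livers of 12 weeks, had log2 fold changes of 0.36 and 0.12, and Mcm4 and Cdc45 were not called.

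None of the 3 genes of DNA synthesis and nucleotide supply was called. Pcna had 33.8, 45.4 and 30.8 CPM in WT and 41.7, 64.0 and 112 CPM in KO livers at 12 weeks, with one KO liver inside the WT range. Its adjusted p was 0.0154, but its log2 fold change of 0.98 (SE 0.30) stayed under the threshold of 1, and at 34 weeks it was 0.57 (SE 0.30, adjusted p = 0.126). Rrm2, the regulated subunit of ribonucleotide reductase, had 0.96 and 0.35, and Tyms, thymidylate synthase, 0.18 and -0.44. No test compared the groups of genes with each other.

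Of the 6 genes of mitotic kinases, the spindle checkpoint and the passenger complex, 5 were called at each time, with medians of 4.14 and 2.55 over the 6. Birc5 (survivin), Plk1, Bub1, Aurkb and Bub1b rose by 4.51, 4.42, 4.28, 4.00 and 3.79 at 12 weeks and by 2.49, 2.83, 3.52, 2.61 and 2.19 at 34 weeks. Plk1, a kinase of mitotic entry and exit, had 0.0536, 0.0478 and 0.576 CPM in WT and 1.63, 2.41 and 10.7 CPM in KO livers at 12 weeks. Aurka, the centrosome kinase, was above WT in every KO liver at both times but was not called (adjusted p = 0.0696 and 0.103). All 5 genes of spindle motors and microtubule proteins were called at both times: Tpx2, Prc1, Kif20a, Nusap1 and Kif11 rose by 2.92 to 4.16 at 12 and by 2.06 to 2.74 at 34 weeks. At 12 weeks KO mouse 5 overlapped with WT livers in Kif20a (0.852 CPM, against 0.239 to 1.10 CPM) and lay below them in Prc1 (0.142 CPM, against 0.191 to 0.375 CPM). Cenpe, a kinetochore motor, rose by 3.30 and 2.96. Cenpa, the histone of the centromere, was called at 12 weeks (1.71, adjusted p = 0.0228) and had 0.73 (adjusted p = 0.298) at 34 weeks. Ube2c, the ubiquitin-conjugating enzyme of the anaphase-promoting complex, had 0.590, 0.861 and 0.523 CPM in WT and 3.23, 3.65 and 20.2 CPM in KO livers at 12 weeks, and rose by 3.76 and 3.23. Cdc20, its activator, rose by 3.69 at 12 weeks and had 1.65 (adjusted p = 0.15) at 34 weeks.

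**Figure D2:**
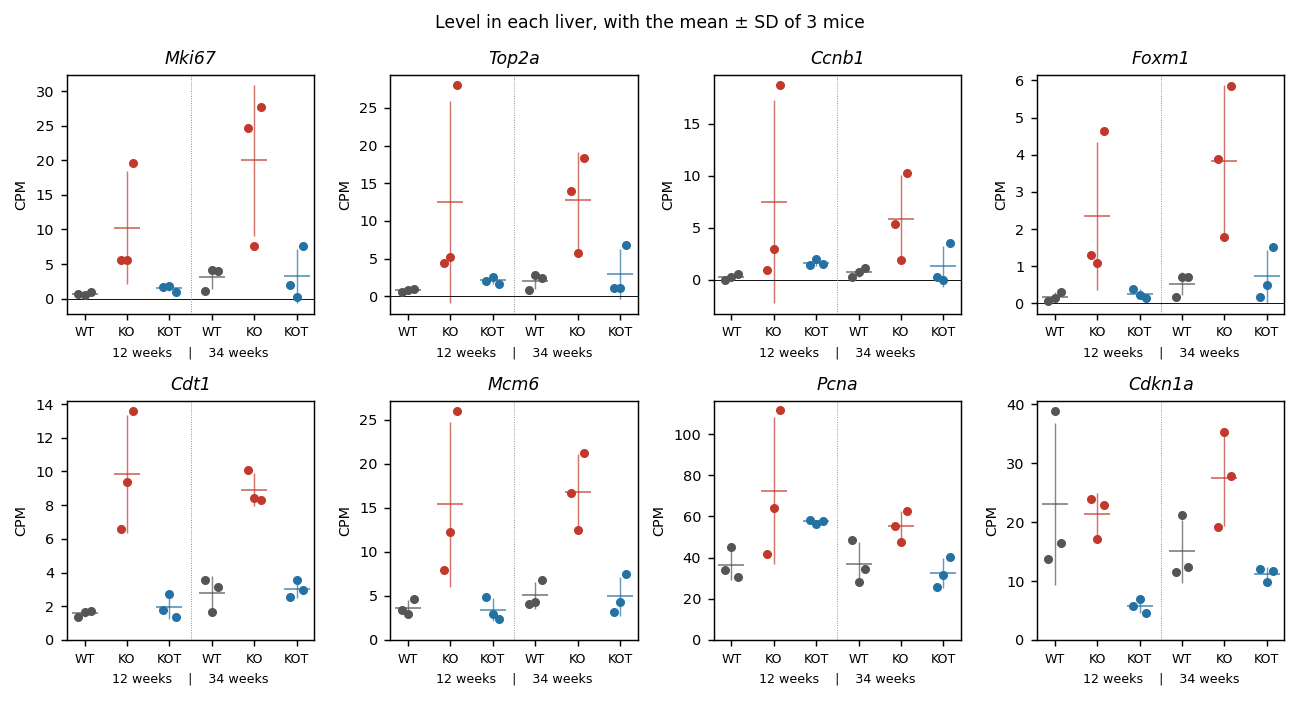
Level in CPM (y axes, linear from 0 upward) of 8 genes in each of the 18 livers, by group and time (x axes), with the mean and SD of 3 mice; an SD bar may reach below 0. KO livers (red) are above WT livers (grey) for Mki67, Top2a, Ccnb1, Foxm1, Cdt1 and Mcm6, while Cdkn1a is lowest in the KOT livers (blue) of 12 weeks, at 4.52 to 6.90 CPM.

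Genes that are low in WT livers showed the larger log2 fold changes. Ranked by their TPM in WT livers at 12 weeks, the first 10 genes (1.17 to 24.2 TPM) held 3 called ones with a median log2 fold change of 0.97, the next 10 held 6 (median 1.97), the third 10 held 10 (median 3.74) and the last 10 (0.0262 to 0.144 TPM) held 9 (median 3.97). Ranked by the WT level at 34 weeks, the bins held 4, 5, 8 and 10 called genes, with medians of 0.80, 1.42, 2.66 and 2.69. The level in WT livers enters both measures, so the order is a description and no test was made of it.

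**Figure D3:**
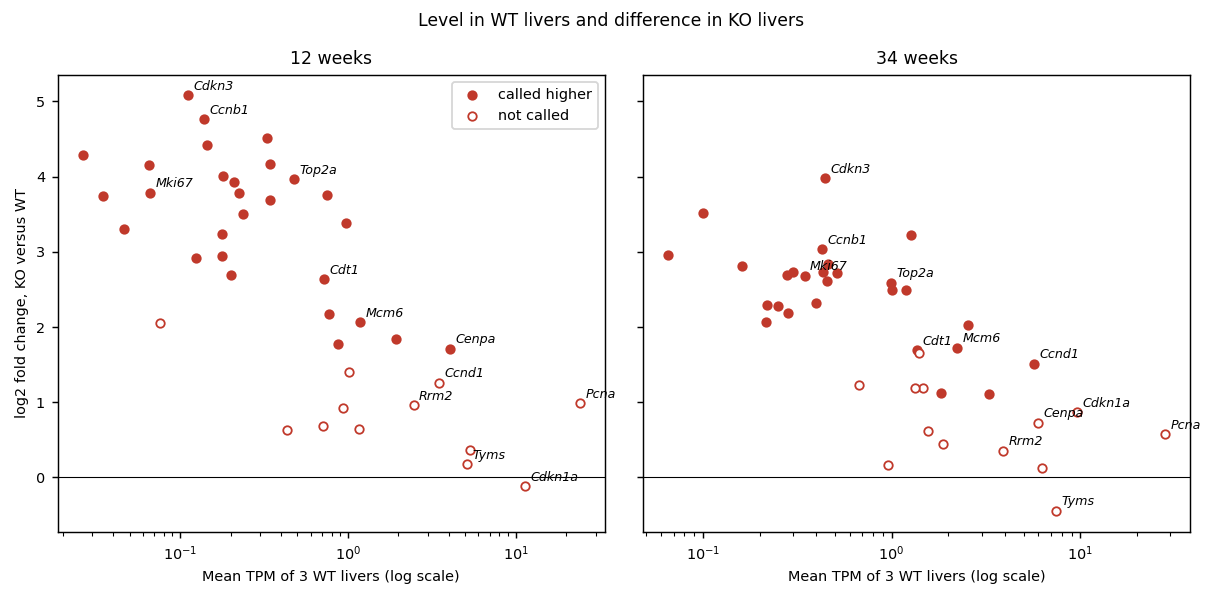
Mean TPM of the 3 WT livers (x axis, log scale) and log2 fold change in KO livers (y axis) of the 40 genes at 12 and 34 weeks; filled points were called higher, open ones were not, and some genes are named. Genes above 1 TPM in WT livers mostly lie below a log2 fold change of 2, and Pcna, Cdkn1a and Tyms are open at both times.

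Livers of one group were far from alike, and this sets how firmly the counts can be read. At 12 weeks KO mouse 9 was the highest of the KO livers in 39 of the 40 genes, and their summed level was 730 CPM there, 210 and 277 CPM in KO mice 5 and 8, and 134 to 169 CPM in WT livers. Its median ratio to the WT mean was 17.5, against 2.25 and 3.96 in mice 5 and 8. Without mouse 9, 14 genes were called, all higher and all among the 28, and the median log2 fold change was 1.61. Of all genes 26.6% were called in that fit, 67.7% of them higher. These 14 were Mki67, Top2a, Cdk1, Cdkn3, Foxm1, Cdt1, Mcm2, Mcm3, Mcm6, Plk1, Bub1b, Birc5, Tpx2 and Ube2c. Mice 5 and 8 were nevertheless above all WT livers in 30 and 33 of the 40 genes, while 40.9% and 38.3% of all genes tested were so. Leaving out KO mouse 5 instead, whose sample code differed from the others, gave 32 calls.

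At 34 weeks the KO livers lay closer together, with summed levels of 384, 287 and 529 CPM in mice 4, 5 and 6 against 161 to 186 CPM in WT livers. Mouse 6 was highest in 38 genes and mouse 5 lowest in 37. The 3 livers exceeded all WT livers in 37, 30 and 38 genes, with median ratios to the WT mean of 4.79, 2.31 and 6.24, while 39.2%, 38.1% and 36.3% of all genes tested were above all WT livers. The count of calls fell to 13 without KO mouse 6, in a fit that called 36.6% of all genes in either direction. It was 13 without WT mouse 1, 17 without WT mouse 2, 17 without WT mouse 3 and 26 without KO mouse 5. The share of all genes is not given here for these last fits. WT mouse 1 was the lowest WT liver in 28 genes. A set of 9 genes was called in every fit that left out a mouse, at both times: Mki67, Top2a, Cdkn3, Foxm1, Cdt1, Mcm6, Bub1b, Tpx2 and Ube2c. Such a count was not made over all genes.

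**Figure D4:**
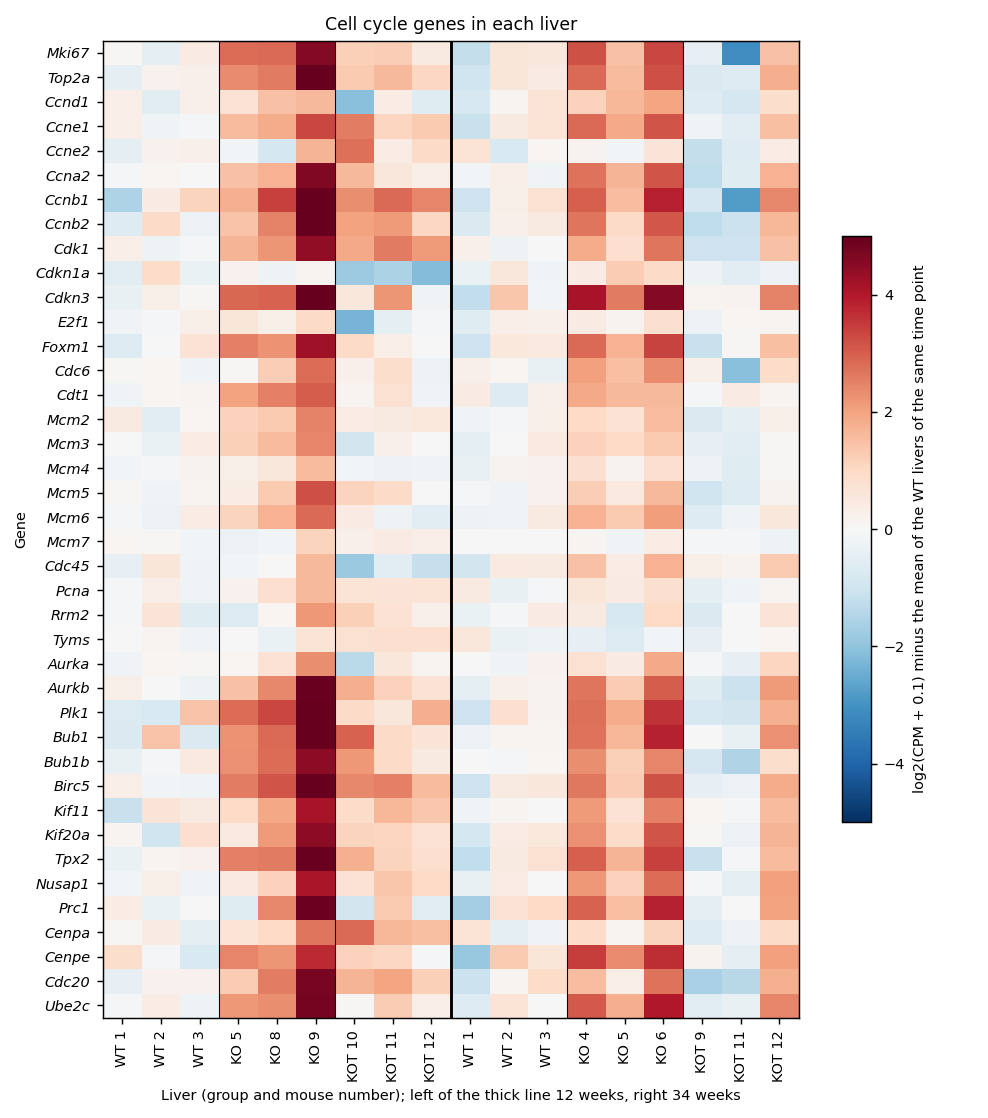
The 40 genes (rows) in each of the 18 livers (columns, named by group and mouse number) as log2(CPM + 0.1) minus the mean of the WT livers of the same time point (colour scale from -5 to 5, with values beyond it in the end colours). KO mouse 9 of 12 weeks is the darkest red column, KOT mouse 12 of 34 weeks is red where the other 2 KOT livers of that time are pale or blue, and the Cdkn1a row is blue in the KOT livers of 12 weeks.

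Markers of other cell types also differed between KO and WT livers. The 9 neutrophil markers were called higher in KO livers at 12 weeks in all 9 cases and at 34 weeks in 7. Their summed level was 1.29 to 2.30 CPM in WT and 134, 192 and 1751 CPM in KO livers at 12 weeks, with the highest value in mouse 9, and 113 to 303 CPM in KO livers at 34 weeks. Ly6g, Camp, Ngp and Mpo were read at 0 in all WT livers of 12 weeks. Macrophage markers (8 of 10 called higher at each time) summed to 111 to 187 CPM in WT and 2749 to 6270 CPM in KO livers at 12 weeks. In KO livers at 34 weeks they summed to 2377 to 4088 CPM, with mouse 6 the lowest. Cholangiocyte markers (4 of 6 and 6 of 6 called) summed to 29.4 to 58.7 CPM in WT and 453 to 2234 CPM in KO livers at 12 weeks, again with mouse 9 the highest. In KO livers at 34 weeks they summed to 1019 to 1795 CPM, with mouse 6 the highest. Stellate cell markers (4 of 8 higher and 1 lower, then 4 higher and 2 lower) reached 363 to 619 and 671 to 1496 CPM in KO livers, against 70.5 to 117 CPM in WT livers. T and NK cell markers were higher for 7 of 9 and 6 of 9, B and plasma cell markers for 3 of 7 and 1 of 7 (with 1 lower at 34 weeks), and Kupffer cell markers for 2 of 5 and 0 of 5 (with 1 and 2 lower). Erythroid precursor markers were called higher for 0 of 8 and 1 of 8, and lower for 1 and 2. Hepatocyte markers were lower for 4 of 9 and 5 of 9, and endothelial markers lower for 4 of 8 and higher for 1 of 8 at each time. The part of any of these cells in the proliferation genes was not tested.

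**Figure D5:**
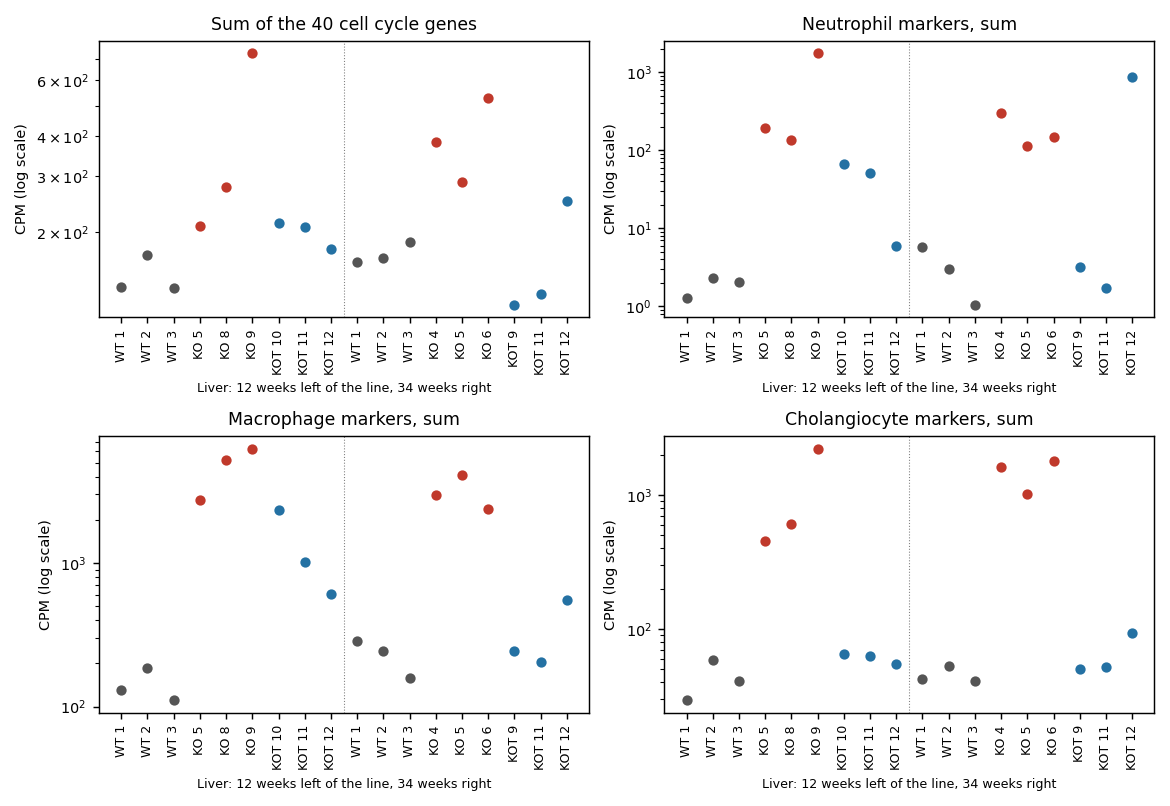
Summed CPM (y axes, log scale) of the 40 cell cycle genes and of the neutrophil, macrophage and cholangiocyte markers in each of the 18 livers (x axes; WT grey, KO red, KOT blue). KO mouse 9 at 12 weeks (730 CPM) and KOT mouse 12 at 34 weeks (251 CPM) stand above their group in the first panel and in the neutrophil panel (1751 and 860 CPM). KO mouse 6 at 34 weeks is the highest of its group in the first panel (529 CPM) but not in the neutrophil panel (147 CPM, against 303 CPM in mouse 4).

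The further genes of the cycle, listed by pathway, are given by counts and medians. Of 50 other mitosis genes, 39 were called higher in KO livers at 12 weeks and 30 at 34 weeks, and none lower, with median log2 fold changes of 3.06 and 2.25. Nuf2, a kinetochore protein, had 4.57 (SE 1.11, adjusted p = 0.00357) and Ckap2l 3.99 at 12 weeks, and Iqgap3 and Ncaph, the latter a condensin subunit, 3.31 and 2.88 at 34 weeks. Without KO mouse 9, 16 of the 50 were called at 12 weeks, and without KO mouse 6, 17 were called higher and 1 lower at 34 weeks. These 2 fits called 26.6% and 36.6% of all genes in either direction, near the shares among the 50. Of 36 other S phase genes tested, 15 were called higher and 1 lower at 12 weeks, and 8 higher and 3 lower at 34 weeks, with medians of 0.74 and 0.34, and 7 were called higher at 12 weeks without KO mouse 9. Over all genes 20.2% and 20.5% were called higher at the 2 times. Uhrf1, which guides the copying of DNA methylation, rose by 3.77 and 3.07. Mcm10, a replication factor, went the other way, with log2 fold changes of -4.02 (SE 0.52, adjusted p = 1.35e-05) and -4.46 (SE 0.53, adjusted p = 4.52e-06), at a mean of 54.6 CPM over all livers, while its values in KOT against WT livers were 0.08 and -0.38. Of 24 other cyclins, kinases, E2F and pocket proteins, 3 and 5 were called higher, near or below the shares of all genes (20.2% and 20.5%). They included Cdc25a, a phosphatase that activates the cyclin kinases (2.21 and 1.81), Rbl1 (2.11 at 12 weeks) and Myc (3.44 at 34 weeks).

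Of the 6 other cyclin-dependent kinase inhibitors, 3 were called higher at each time, with Cdkn1c (p57) at 4.50 (SE 0.56, adjusted p = 1.04e-05) and 3.44 and Cdkn2c (p18) at 2.26 and 1.79. Of 15 targets of p53, which also drives Cdkn1a, 4 were called higher at 12 weeks, and 2 higher and 1 lower at 34 weeks, where 20.2% and 20.5% of all genes were called higher. Phlda3 had 3.08 and 2.38 at the 2 times. Of the others, Eda2r was called at 12 weeks (adjusted p = 0.0156) and Btg2 had 2.51 at 34 weeks.

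The second question was whether the gene transfer moved these genes. Treated livers were compared with KO and with WT livers of the same time point, and the comparisons share those groups. At 12 weeks 25 of the 40 genes were called lower in KOT than in KO livers and none higher, with 41.5% of all genes called in either direction, a median log2 fold change of -1.96 (all genes: -0.19) and a range of -3.40 to 1.12. At 34 weeks 18 were called lower and none higher (31.5% of all genes called), with a median of -1.66 and a range of -2.77 to 0.29. The KOT and KO livers had no overlap in 20 genes at 12 weeks (59.3% of all genes) and in 18 at 34 weeks (55.9%). The summed level of the 40 genes in KOT livers at 12 weeks was 213, 208 and 177 CPM. KO mouse 5 lay within that range (210 CPM), and the WT livers lay below it (134 to 169 CPM). This order depended on the TMM factors. As a share of all reads, KOT livers (0.0111% to 0.0158%) overlapped with WT livers (0.0118% to 0.0137%), and all KO livers lay above both (0.0257% to 0.0897%). Summed TPM also overlapped between KOT livers (62.9 to 94.1) and WT livers (64.8 to 79.4). At both times 16 genes were called lower, among them Top2a, Foxm1, Plk1 and Tpx2, a count that was not made over all genes. Mki67 fell by 2.75 (SE 0.86, adjusted p = 0.0131) at 12 weeks and by 2.59 (SE 0.81, adjusted p = 0.0163) at 34 weeks, Cdt1 by 2.31 (adjusted p = 5.72e-05) and 1.57 (adjusted p = 0.000949), and Mcm6 by 2.18 and 1.76. Cdkn1a fell by 1.89 (SE 0.37, adjusted p = 0.000512) and 1.29 (SE 0.35, adjusted p = 0.00718), although it had not been called in KO against WT livers.

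The counts against KO livers depended on single mice. At 12 weeks, without KO mouse 9, 8 genes were called, 7 lower and 1, Ccne2, higher, and the median was -0.75. That fit called 41.9% of all genes in either direction, so the share among the 40 was below that of all genes. Without KOT mouse 10 or without KOT mouse 12 there were 16. At 34 weeks, without KOT mouse 12, 31 genes were called lower with a median of -2.77, and 31.9% of all genes were called. There were 6 without KOT mouse 9, 7 without KOT mouse 11, 7 without KO mouse 6 and 11 without KO mouse 4. The share of all genes called was 31.5% with every mouse and is not given here for these fits. Of the 50 other mitosis genes, 24 were called lower in KOT than in KO livers at 12 weeks and 20 at 34 weeks, with 2 and 0 higher. Without KO mouse 9 there were 9 lower and 4 higher at 12 weeks, and without KOT mouse 12 there were 38 lower at 34 weeks. Of all genes 41.9% and 31.9% were called in these 2 fits. Markers of other cells were lower in KOT than in KO livers too, with 7 and 8 of 10 macrophage markers (1 higher at 12 weeks), 4 and 6 of 6 cholangiocyte markers, and 7 and 0 of 9 neutrophil markers called lower at the 2 times, and their part was not tested. Cdkn1a, Cdt1, Mcm3 and Mcm6 were called lower in every fit that left out a mouse at both times.

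Against WT livers, KOT livers at 12 weeks had 5 called genes, 4 higher and 1 lower, while 25.5% of all genes were called in either direction and 13.6% higher. Their median log2 fold change was 0.90 (all genes: 0.06), with 33 positive, and 21 genes had no overlap between the groups (52.5% of all genes). Cenpa had 4.66, 5.93 and 3.25 CPM in WT livers and 32.5, 14.4 and 12.7 CPM in KOT mice 10, 11 and 12, without overlap, and rose by 2.10 (SE 0.57, adjusted p = 0.012). Cdk1 had 1.34, 0.861 and 0.995 CPM in WT and 4.18, 6.79 and 4.98 CPM in KOT livers and rose by 2.33 (SE 0.77, adjusted p = 0.0281). Birc5 and Ccne1 rose by 2.51 (adjusted p = 0.0374) and 1.99 (adjusted p = 0.0452). None of these 4 kept its call in every fit that left out a mouse: without WT mouse 3 or KOT mouse 10 Cdkn1a alone was called, and without WT mouse 1 or WT mouse 2 there were 2 calls. When libraries were scaled by their total counts in place of TMM factors, which moved the median of all genes to -0.33, 1 gene was called higher and 1 lower. In log2(TPM + 0.1) with limma, 0 genes were called higher and 2 lower. Macrophage markers summed to 610 to 2342 CPM in these KOT livers (5 of 10 called higher and 1 lower) and neutrophil markers to 5.90 to 67.0 CPM (1 of 9 called higher), and their part was not tested.

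Cdkn1a was the gene called lower. Its level at 12 weeks was 13.8, 38.9 and 16.5 CPM in WT, 23.9, 17.2 and 22.9 CPM in KO and 5.73, 6.90 and 4.52 CPM in KOT livers. The KOT livers lay below every WT and every KO liver, and WT mouse 2 was the highest of all. The log2 fold change against WT livers was -2.01 (SE 0.37, adjusted p = 0.00275), and it was called lower in each of the alternative analyses, with adjusted p between 1.31e-05 and 0.013. At 34 weeks the levels were 11.6, 21.2 and 12.3 CPM in WT, 19.2, 35.3 and 27.9 CPM in KO and 12.0, 9.83 and 11.8 CPM in KOT livers, and the log2 fold change against WT livers was -0.43 (SE 0.35, adjusted p = 0.965). Of the 15 other p53 targets, 2 were called higher and 3 lower in KOT than in WT livers at 12 weeks. By name, chosen after their values were seen, Fas (1.62) and Phlda3 (1.57) were higher and Btg2 (-2.51), Zmat3 (-1.31) and Sesn2 (-1.10) lower. Of the 6 other kinase inhibitors, 4 were higher, with Cdkn1c at 2.33 and, also named after its value was seen, Cdkn1b (p27) at 1.21. Other S phase genes were higher in 9 of 36 cases, and other mitosis genes higher in 5 and lower in 1 of 50. Other cyclins, kinases and E2F proteins were higher in 2 and lower in 3 of 24. Over all genes 13.6% were called higher and 25.5% in either direction.

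At 34 weeks none of the 40 genes was called between KOT and WT livers. The edgeR fit gave 0 calls and 0 genes with an unadjusted p under 0.05, DESeq2 and limma also gave 0 calls, and 0.22% of all genes were called. The median log2 fold change was 0.32 with a range of -0.45 to 1.52, and the SE of single genes, such as 0.79 for Mki67 (log2 fold change 0.09), left room for sizeable differences. KOT mouse 12 was the highest of its group in 37 of the 40 genes. Mki67 was read at 1.99, 0.218 and 7.59 CPM in KOT mice 9, 11 and 12, and the summed level of the 40 genes at 118, 128 and 251 CPM. Mouse 12 exceeded all WT livers in 30 genes, mice 9 and 11 in 0 and 1, while 21.9%, 33.7% and 17.1% of all genes were above all WT livers in mice 12, 9 and 11. Mice 9 and 11 lay below all WT livers in 16 and 19 of the 40 genes, a count that was not made over all genes. Neutrophil markers summed to 860 CPM in mouse 12 and to 3.17 and 1.75 CPM in mice 9 and 11. Macrophage markers reached 548 CPM in mouse 12, against 205 and 244 CPM. Without mouse 12, 0 genes were called, and the median turned to -0.61, with 2 of 40 positive. None of the 5 pathway lists held a called gene in this comparison.

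The third question was whether the levels changed with time. In WT livers 0 of 40 genes were called between 34 and 12 weeks by edgeR, DESeq2 or limma, 4 had an unadjusted p under 0.05 in the edgeR fit, and 0.323% of all genes were called. Their log2 fold changes were positive in 38 genes with a median of 0.69 (all genes: 0.07). The 4 genes were Mki67 (2.07), Mcm2 (0.83), Cdt1 (0.81) and Mcm3 (0.81), all higher at 34 weeks. In KO livers 0 genes were called by edgeR (0 at an unadjusted p under 0.05), DESeq2 or limma, with a median of -0.07, and 0.495% of all genes were called. Without KO mouse 9 of 12 weeks 0 genes were called, but the median was 0.97 and 8 genes had an unadjusted p under 0.05. In KOT livers 2 genes were called, both lower at 34 weeks, against 32% of all genes: Ccne2 by -2.07 (SE 0.71, adjusted p = 0.0267) and Cenpa by -1.78 (SE 0.56, adjusted p = 0.0174). Ccne2 had 9.72 CPM in KOT mouse 10 of 12 weeks, and 1.79 and 2.76 CPM in mice 11 and 12. Without that mouse, without KOT mouse 9 of 34 weeks or without KOT mouse 11 of 34 weeks, 0 genes were called, and without KOT mouse 12 of 34 weeks 4 were called lower. With total-count scaling 6 genes were called, all higher at 34 weeks, and both of these lost their call.

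The difference between KO and WT livers did not itself pass the test of change between the times. The interaction gave 0 of 40 calls by edgeR (0 at an unadjusted p under 0.05), DESeq2 or limma, with 0.0619% of all genes called. Its median was -0.77 (all genes: -0.14), with 35 of 40 negative, but it turned to 0.28 without KO mouse 9 of 12 weeks and to 0.10 with limma on log2(TPM + 1). For KOT against WT livers the interaction was called for 1 gene, Cdkn1a (1.58, SE 0.50, adjusted p = 0.04), whose deficit at 12 weeks was smaller at 34 weeks, while 18.4% of all genes were called. With 3 mice per group an exact permutation test of a single gene cannot go below p = 0.1, so the calls rest on the model fitted across genes.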

How the data were processed

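RNA of 18 mouse livers was sequenced as paired-end poly(A) libraries. The authors assigned reads to GRCm39 transcripts (Ensembl cDNA) with Salmon and brought them to gene level by tximport; the submitters' processing notes list R 4.3.0 and DESeq2 1.40.1. The deposited estimated counts are not scaled for library size or length, the deposited TPM values were scaled within each liver, and the deposited gene lengths are effective lengths in bases. The authors' table of their own comparisons (fold changes and p values) was not used.

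Groups and mouse numbers came from the sample labels. Estimated counts were rounded and tested in R 4.3.3 with edgeR 4.0.16: TMM factors, genes with more than 100 reads, 6 group means, 11 comparisons, Benjamini-Hochberg adjustment over 14533 genes. CPM use the TMM-scaled library sizes. The scripts were tested on simulated data. DESeq2 1.42.0, limma 3.58.1 on log2(TPM + 0.1) or log2(TPM + 1), other scalings, filters and thresholds, and leaving out each mouse were tried as alternatives. Depth limits single values: 3 reads corresponded to 0.0946 to 0.292 CPM. The 40 genes, the pathway and marker lists and the motifs were chosen with earlier results of these data known. All 40 genes are named; from each pathway list, the 2 called genes with the largest change in KO against WT livers at each time, with a mean of at least 1 CPM. Promoters are from RefSeq, and gene positions from GENCODE M39 (GRCm39).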

Additional observations from a re-analysis of the deposited data

Results flagged for a closer look

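The difference of KOT from WT livers in Cdkn1a, the gene of p21, changed between the time points by a test of the change itself: the log2 fold change was 1.58 higher at 34 than at 12 weeks (SE 0.50, adjusted p = 0.04 by edgeR, over all genes). The levels were 5.73, 6.90 and 4.52 CPM in KOT and 13.8, 38.9 and 16.5 CPM in WT livers at 12 weeks, and 12.0, 9.83 and 11.8 CPM against 11.6, 21.2 and 12.3 CPM at 34 weeks. Leaving out 1 mouse at a time, its adjusted p ran from 0.0221 to 0.105 and its value from 0.97 (without WT mouse 2 of 12 weeks) to 1.91. The call was lost in 9 of the 12 such fits, and when only the 4 groups compared were fitted.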

How the results depend on the processing

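Of 8040 values of single genes under alternative settings, 7532 kept their side of the threshold, 330 lost it in the same direction and 177 gained it in the same direction, and 1 value that had been called changed sign (Cenpe between KOT and KO livers at 12 weeks, 0.0587 with DESeq2, from -2.40); values not called under either setting were not compared by sign. DESeq2 called 9 genes between KOT and WT livers at 12 weeks and 2 in their change over time. With gene length offsets edgeR called 3 in KOT against WT livers at 12 weeks and 1 in KOT livers over time. Total-count scaling moved the median of all genes from 0.02 to 0.49 (KO against WT, 12 weeks) and gave 2 and 6 for the same comparisons, and upper-quartile factors gave 4 for the latter. Scaling by total counts also moved the share of higher among called genes over all genes. For KO against WT at 12 and 34 weeks it went from 69.1% to 87.2% and from 56.6% to 81.8%. At 12 weeks it went from 53.1% to 24.4% for KOT against WT and from 39% to 8.92% for KOT against KO. With total-count scaling 33 and 34 of the 40 genes were called higher in KO livers at 12 and 34 weeks and none lower. Fitting only the groups compared gave 8 for KOT against WT and 15 for KOT against KO at 12 weeks, and 0 for the change of KOT against WT. Without the fold threshold 5 were called in KOT livers over time. An adjusted p under 0.01 left 1, 9, 8, 5, 0 and 0 calls for KOT against WT and KOT against KO at 12 weeks, KO against WT and KOT against KO at 34 weeks, KOT over time, and the change of KOT against WT. Limma on log2(TPM + 0.1) gave 2, 30 and 7 for KOT against WT at 12 weeks, KOT against KO at 34 weeks and KOT over time, and on log2(TPM + 1) 1 for the first. The causes were not tested.

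Leaving out 1 mouse at a time, calls ran from 14 to 32 (KO against WT, 12 weeks), 13 to 26 (34 weeks), 1 to 4 and 0 to 0 (KOT against WT), 8 to 30 and 6 to 31 (KOT against KO), 0 to 0 in WT and KO livers over time, 0 to 4 in KOT livers, 0 to 0 for the change of KO against WT and 0 to 3 for that of KOT against WT. Mouse numbers did not pair livers across time (correlations of same-numbered deviations of 0.112, -0.405 and 0.635 in WT, -0.0514 and -0.342 in KOT, and 0.227 in the 1 number KO livers shared), and a replicate block gave 0 calls in WT and 0 in KOT livers over time. Few reads per gene and 3 mice per group limit the smaller differences.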
